A study of Mus musculus with 12 samples.

Results

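In the tibialis anterior (TA) of wild-type mice, 21 genes formed a trough at 2 weeks (wks) of age, with lower RNA at 2 wks than both in embryos shortly before birth (E18.5) and in young adults at 7 wks. The TA is a fast muscle at the front of the lower leg. The counts came from 12 libraries, 1 per mouse and 4 per age, of the 129Pas background with the genotype WT, and no mouse carried an engineered allele or had a treatment. RNA was extracted from TA muscle tissue, so that in these bulk samples fewer cells of a type and less RNA per cell cannot be told apart. The labels name neither litter nor dissection day, and neither could be taken into account. The p-values weigh a difference between ages against the spread between the mice within each age.

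Members were selected on measured values, and the trough itself is a description with no test. Levels are CPM, counts per 1000000 reads of the library total, after TMM factors corrected the totals for genes that take a large share of the reads. A gene was open to selection with a mean of at least 5 CPM at both E18.5 and 7 wks. It became a member when its mean log2(CPM + 0.5) at 2 wks lay at least 1 below both other means and its highest 2-wk library lay below each of the 8 libraries of the other ages. The smaller of these differences is called depth here. Of 55450 genes in the table, 9038 were open, 26 of these reached a depth of 1, and 21 also had no overlap between libraries, 0.232% of the open genes. All 21 members passed the filter on low counts and were among the 19276 genes tested.

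Before birth, muscle fibres still form and grow by fusion of precursor cells. In the first weeks after birth, fibres enlarge, embryonic and neonatal contractile proteins give way to adult ones, and the nerve contact and the internal membranes mature. The members do not belong to a single pathway: they include a complement protein, secreted and cell surface proteins, membrane enzymes and transporters, an oxygen sensor, regulators of cell death and DNA repair, and cytoskeletal adaptors.

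The libraries held 63018968 to 123449246 counts, and members had 64 to 36539 counts per library, which leaves little error from counting. The TMM factor averaged 1.62 in the embryos and, after birth, 0.884 (2 wks) and 0.698 (7 wks). The 5 myofibre markers (*Ckm*, *Acta1*, *Tnnt3*, *Mylpf* and *Ttn*) summed to 12011 to 21159 CPM at E18.5, 107106 to 130427 CPM at 2 wks and 107393 to 141172 CPM at 7 wks, so that the labelled tissue's markers were high at every age. A pair of libraries stood apart: E18.5 replicates 3 and 4 held *Adipoq*, a hormone of fat cells, at 219.6 and 188 CPM against 6.52 and 7.93 CPM in replicates 1 and 2. The 7 adipocyte markers summed to 185 to 2778 CPM at E18.5, 418 to 484 CPM at 2 wks and 307 to 405 CPM at 7 wks, and 6 of the 7 fell from E18.5 to 2 wks, beside 35.8% of all genes tested. Of the 7, *Fabp4* alone exceeded 5 CPM after birth. For members, results that rest on these libraries are given with and without them.

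Promoters were read for the members because they moved together by selection. RefSeq (GRCm38.p6) gave 20 promoter windows for 16 of the 21 genes, each from 250 bases before to 50 bases after the transcription start. *Egln3*, *Bcl2* and *Smarca1* are shown because each holds TGACGT, the shorter form of the cyclic AMP response element, which is in capitals. The windows lie at chr12:54203825-54204124, chr1:106714241-106714540 and chrX:47892564-47892863, all on the minus strand, and are written 5′ to 3′ along the gene.
Egln3: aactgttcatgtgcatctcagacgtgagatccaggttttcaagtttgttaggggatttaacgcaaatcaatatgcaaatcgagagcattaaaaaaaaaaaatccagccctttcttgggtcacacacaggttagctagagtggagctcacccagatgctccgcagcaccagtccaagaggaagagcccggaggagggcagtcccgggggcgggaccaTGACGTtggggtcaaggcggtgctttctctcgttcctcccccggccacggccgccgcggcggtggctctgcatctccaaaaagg
Bcl2: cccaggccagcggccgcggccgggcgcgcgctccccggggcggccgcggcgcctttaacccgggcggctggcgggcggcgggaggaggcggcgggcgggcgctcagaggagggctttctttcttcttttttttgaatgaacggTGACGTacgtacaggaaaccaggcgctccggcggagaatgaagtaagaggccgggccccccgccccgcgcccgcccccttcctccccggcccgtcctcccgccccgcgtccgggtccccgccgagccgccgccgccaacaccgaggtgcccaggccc
Smarca1: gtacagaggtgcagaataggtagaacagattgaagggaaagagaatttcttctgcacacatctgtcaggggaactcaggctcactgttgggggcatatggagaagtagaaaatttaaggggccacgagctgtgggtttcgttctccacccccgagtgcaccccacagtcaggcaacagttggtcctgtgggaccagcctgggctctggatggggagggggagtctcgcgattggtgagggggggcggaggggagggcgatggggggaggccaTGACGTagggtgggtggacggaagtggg

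The short form TGACGT, searched on both strands as all motifs here, was in 5 of the 20 member windows (25%), those of *Smarca1*, *Bcl2*, *Egln3*, *Mospd1* and *Mttp*, and in 7.51% of all 32851 windows of this length. The whole element TGACGTCA, which contains the short form, was in 0 member windows and in 1.79% of all. The GC box GGGCGG was in 12 member windows (60%) and in 35.7% of all, and the CCAAT box in 6 (30%) and 37.4%. AGAACA, a motif of the glucocorticoid receptor, was in 3 (15%) and 19.0%, the heat shock element GAANNTTC in 2 (10%) and 7.86%, ACGTG, the core of the hypoxia response element, in 2 (10%) and 19.6%, and the TATA box TATAAA in 1 (5%) and 13.6%. ACGTG can overlap both TGACGT and the E-box. The AP-1 site TGANTCA (7.81% of all windows), the E-box CACGTG (7.15%), the serum response CArG box (1.63%) and the sterol element TCACNCCAC (1.24%) were in 0 member windows. Member windows had a median GC content of 59.7% (range 40.3 to 85.0%) and all windows 52.7%. The median count of CpG, a C followed by a G, was 14.5 in member windows and 7 in all windows. TGACGT and GGGCGG each contain a CpG. The windows of all genes were not narrowed to open genes or to a like CpG count. The part of CpG content in the motif shares was not tested. Of the 16 genes, 4 have 2 windows, and matches are letters in a window, with no measurement of binding behind them.

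**Figure D1:**
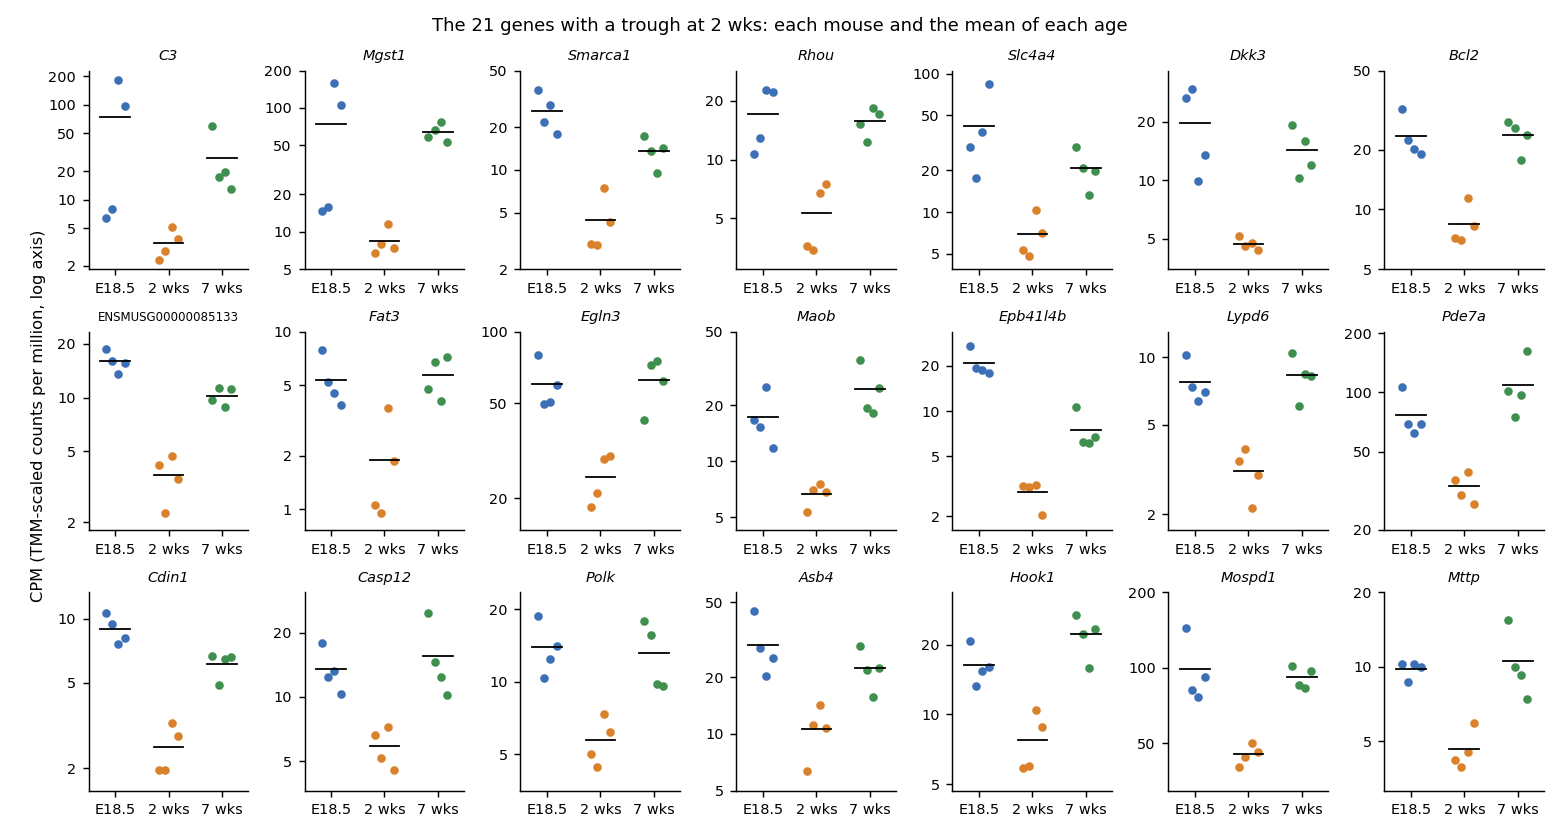
CPM of the 21 members (log axis) in each of 4 mice at E18.5 (blue), 2 wks (orange) and 7 wks (green), with black bars for the means, in order of depth. The 2-wk points lie below all others in every panel, as the selection required, and *C3* and *Mgst1* split into 2 low and 2 high libraries at E18.5.

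Among secreted and cell surface proteins, *C3*, the central protein of the complement cascade, had the deepest trough. It stood at 6.36, 8.05, 184 and 96.2 CPM in E18.5 replicates 1 to 4, at 2.31, 2.88, 5.08 and 3.80 CPM at 2 wks and at 59.8, 17.1, 19.6 and 12.8 CPM at 7 wks. The 2 high E18.5 libraries were those with adipocyte RNA, while replicates 1 and 2 came within 1.251-fold of the highest 2-wk library at the closest. Depth was 2.57, or 5.94-fold, and 0.938 without E18.5 replicates 3 and 4, which no longer reaches the limit of 1.

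*Dkk3*, a secreted glycoprotein of the Dickkopf family, had the widest gap between ages of all members. Its levels were 26.5, 29.3, 9.89 and 13.4 CPM at E18.5, 5.13, 4.60, 4.76 and 4.36 CPM at 2 wks and 19.3, 10.3, 15.9 and 11.98 CPM at 7 wks. The lowest library of the other ages was 1.93-fold above the highest at 2 wks, and the 4 mice at 2 wks were nearly alike (4.71 ± 0.326 CPM, SD, n = 4). *Lypd6*, a membrane-anchored protein of the Ly6 family, was at 10.2, 7.37, 6.36 and 7.01 CPM, then at 3.45, 3.88, 2.13 and 3.00 CPM, then at 10.4, 6.08, 8.40 and 8.26 CPM. Replicate 1 was its highest library at both E18.5 and 7 wks. *Fat3*, an atypical cadherin of the cell surface, was at 7.84, 5.195, 4.52 and 3.88 CPM at E18.5, 1.06, 0.958, 3.69 and 1.87 CPM at 2 wks and 4.78, 6.73, 4.04 and 7.18 CPM at 7 wks. It had the narrowest gap of the 21, since 2-wk replicate 3 lay only 1.05-fold below E18.5 replicate 4, although its depth was 1.38.

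Enzymes and transporters of membranes made up a further group. *Mgst1*, a microsomal glutathione transferase that protects membranes against oxidation, was at 14.6, 15.7, 159.8 and 106 CPM at E18.5, at 6.68, 7.98, 11.5 and 7.33 CPM at 2 wks and at 57.9, 66.3, 77.4 and 53.5 CPM at 7 wks. As with *C3*, its high E18.5 libraries were those with adipocyte RNA, but the 4 libraries at 7 wks lay close together (63.8 ± 10.5 CPM, SD, n = 4). Depth was 2.38 with all libraries and 0.809 without E18.5 replicates 3 and 4.

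*Slc4a4*, a sodium bicarbonate cotransporter that regulates pH, was at 29.5, 17.6, 37.6 and 83.9 CPM at E18.5, at 5.30, 4.86, 10.4 and 7.08 CPM at 2 wks and at 29.7, 20.9, 13.3 and 19.7 CPM at 7 wks. E18.5 replicate 4 was its highest library, but depth was 1.53 with and 1.502 without E18.5 replicates 3 and 4. *Maob*, which oxidises monoamines at the mitochondrial outer membrane, was at 16.8, 15.4, 25.2 and 11.9 CPM, then at 5.35, 7.06, 7.55 and 6.83 CPM, then at 34.9, 19.3, 18.3 and 24.95 CPM. The E18.5 and 7-wk libraries of *Maob* overlapped, and those at 2 wks were at or below 7.55 CPM. *Mttp*, which loads lipid onto apolipoprotein B, was at 10.3, 8.71, 10.3 and 9.99 CPM at E18.5, at 4.19, 3.95, 4.54 and 5.94 CPM at 2 wks and at 15.4, 10.01, 9.25 and 7.42 CPM at 7 wks. With a depth of 1.01 it was the member nearest the limit, and its E18.5 libraries were tightly grouped (9.83 ± 0.759 CPM, SD, n = 4).

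Of the signalling proteins, *Egln3* encodes the prolyl hydroxylase PHD3, which uses oxygen to mark the hypoxia-inducible factors for destruction. Its levels were 79.7, 49.6, 50.6 and 59.8 CPM at E18.5, 18.4, 20.9, 29.1 and 29.9 CPM at 2 wks and 42.5, 72.0, 75.1 and 61.9 CPM at 7 wks. The means at E18.5 (59.95 ± 13.96 CPM, SD, n = 4) and 7 wks (62.9 ± 14.7 CPM) differed by less than their spread, and the mean at 2 wks was 24.6 ± 5.80 CPM. *Pde7a*, a phosphodiesterase that breaks down cyclic AMP, was at 106, 68.8, 61.9 and 69.2 CPM, then at 36.0, 30.2, 39.6 and 27.1 CPM, then at 102, 75.2, 97.2 and 163 CPM. It was among the most abundant members by CPM, and its highest library was 7-wk replicate 4.

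*Rhou*, a small GTPase, was at 10.6, 13.0, 22.8 and 22.2 CPM at E18.5, at 3.61, 3.45, 6.72 and 7.55 CPM at 2 wks and at 15.2, 12.3, 18.4 and 17.1 CPM at 7 wks. Its E18.5 libraries also split into replicates 1 and 2 and the higher replicates 3 and 4, and depth was 1.54 with and 1.105 without the latter. *Asb4*, a substrate adaptor of ubiquitin ligases, was at 45.1, 28.5, 20.2 and 25.3 CPM, then at 6.34, 11.2, 14.2 and 10.8 CPM, then at 29.4, 21.8, 15.7 and 22.5 CPM. Its highest 2-wk library came within 1.104-fold of the lowest at 7 wks.

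Proteins of cell death, DNA repair and chromatin were represented by *Bcl2*, *Casp12*, *Polk*, *Smarca1* and *Cdin1*. *Bcl2*, which blocks apoptosis at the mitochondrial outer membrane, was at 32.0, 22.4, 20.1 and 19.0 CPM at E18.5, at 7.16, 6.97, 11.3 and 8.19 CPM at 2 wks and at 27.7, 25.7, 17.7 and 23.8 CPM at 7 wks. Its means at the outer ages were nearly equal, 23.4 ± 5.90 and 23.7 ± 4.31 CPM (SD, n = 4 each), around a 2-wk mean of 8.42 ± 2.03 CPM. *Casp12*, a caspase of the inflammatory family associated with the endoplasmic reticulum, was at 17.9, 12.4, 13.2 and 10.4 CPM, then at 6.65, 5.20, 7.24 and 4.55 CPM, then at 24.7, 14.6, 12.5 and 10.3 CPM. *Polk*, a DNA polymerase that copies past damaged bases, was at 18.8, 10.4, 12.5 and 14.02 CPM, then at 5.03, 4.41, 7.37 and 6.20 CPM, then at 17.8, 15.6, 9.75 and 9.56 CPM. For both genes replicate 1 was the highest library at E18.5 and at 7 wks.

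*Smarca1* encodes SNF2L, an ATPase that slides nucleosomes. It was at 36.3, 21.8, 28.6 and 17.8 CPM at E18.5, at 3.00, 2.95, 7.40 and 4.28 CPM at 2 wks and at 17.3, 13.5, 9.55 and 14.4 CPM at 7 wks. The E18.5 libraries all lay above those at 7 wks, and the depth of 1.59 was exceeded only by *C3* and *Mgst1*. *Cdin1*, whose product is a nuclease bound by codanin, was at 10.6, 9.45, 7.57 and 8.09 CPM, then at 1.96, 1.96, 3.26 and 2.81 CPM, then at 6.68, 4.87, 6.48 and 6.62 CPM, also without overlap between E18.5 and 7 wks.

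The last groups were proteins of the cytoskeleton and membrane contacts and a gene without a name. *Epb41l4b*, a FERM-domain protein of the band 4.1 family, was at 27.1, 19.5, 18.8 and 18.05 CPM at E18.5, at 3.19, 3.12, 3.20 and 2.02 CPM at 2 wks and at 10.6, 6.23, 6.09 and 6.77 CPM at 7 wks. Its fall to 2 wks was larger than its return, and no 7-wk library reached the lowest at E18.5. *Hook1*, which links cargo to dynein on microtubules, was at 20.8, 13.2, 15.3 and 16.0 CPM, then at 5.84, 5.95, 10.5 and 8.79 CPM, then at 27.0, 22.4, 15.9 and 23.5 CPM. *Mospd1*, a membrane protein with a major sperm protein domain, was at 144, 81.3, 76.5 and 91.9 CPM, then at 40.3, 44.0, 50.02 and 46.0 CPM, then at 102, 85.4, 83.2 and 97.4 CPM. For *Hook1* and *Mospd1* the outer ages overlapped. ENSMUSG00000085133, which had no entry in the annotations used here, was at 18.8, 16.1, 13.5 and 15.6 CPM, then at 4.19, 2.26, 4.71 and 3.50 CPM, then at 9.68, 11.3, 8.85 and 11.2 CPM, with a depth of 1.40 and all E18.5 libraries above those at 7 wks.

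Taken per kilobase of transcript, which allows levels to be compared between genes, the members ranged at E18.5 from 0.286 CPM per kb for *Fat3* to 61.9 for *Mgst1*, with *Mospd1* at 35.9 and *Egln3* at 22.3. At 2 wks the highest of the 20 members with a known length was *Mospd1* at 16.4 CPM per kb. Median depth was 1.27, a 2.41-fold difference, and the range was 1.01 to 2.57. The E18.5 side set the depth in 10 members and the 7-wk side in 11. Just inside the limit were *Mttp* (1.01), *Mospd1* (1.02), *Hook1* (1.05) and *Asb4* (1.06). Just outside lay *Fibin* (0.979), *Tenm3* (0.965), *Tdrkh* (0.958) and *Mstn* (0.957), the gene of myostatin, the inhibitor of muscle growth, with means of 57.4, 27.1 and 54.5 CPM at the 3 ages. The genes past the limit whose libraries overlapped included *Car3* (depth 2.24), *Ces1d* (1.77), *Ppara* (1.05) and *Tiparp* (1.02).

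**Figure D2:**
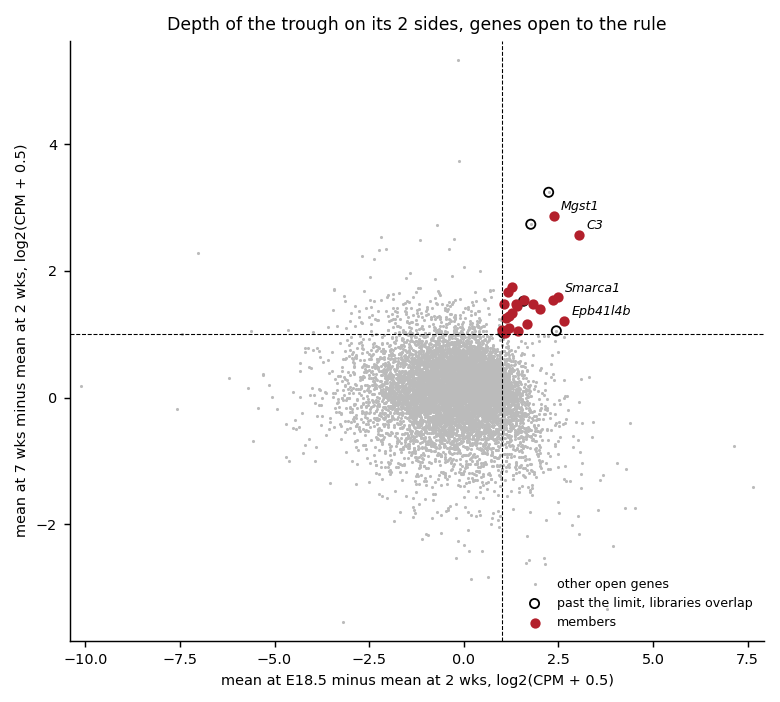
Mean log2(CPM + 0.5) at E18.5 minus 2 wks (x axis) against 7 wks minus 2 wks (y axis) for the 9038 open genes, with dashed lines at the limit of 1. The 21 members (red) and the 5 genes with overlapping libraries (circles) fill the upper right corner, where *C3* and *Mgst1* lie farthest out.

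Members varied more between mice than open genes did. The coefficient of variation had a median over members of 26.1% among E18.5 mice, 24.2% among 2-wk mice and 25.1% among 7-wk mice, against 20.5%, 10.3% and 15.6% over the open genes. The same mice were often highest: E18.5 replicate 1 in 15 of 21 members, 2-wk replicate 3 in 16 and 7-wk replicate 1 in 15. How often these libraries were highest among all open genes was not counted, so this cannot be called a trait of the members.

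The difference between the outer ages was not itself a criterion of selection, and it asks whether a member returned at 7 wks to its level before birth. Selection did use the E18.5 and 7-wk values, since both had to reach the minimum level and exceed the age between them. Genes with a steady rise or fall could not enter. The share of members called is therefore limited in part by selection, and its contrast with all genes is no independent test of a return. In the quasi-likelihood test of edgeR, fitted to all 19276 genes and the 12 libraries with Benjamini-Hochberg adjustment, 5 of 21 members were called, all of them higher at E18.5, and 16 were not called. This shared direction depended on the processing: with the GC trend removed 9 were called, 4 of them higher at 7 wks, and with upper-quartile factors 6, 3 of them higher at 7 wks. Among all genes 71.5% were called, 32.9% higher and 38.6% lower at 7 wks. The median fitted log2 change of the members was -0.10 and that of all genes -0.15, with 12 members below 0 and 9 above. Scaling to total counts in place of TMM moved the median fitted change of all genes by -1.22 (log2) and the split of calls from 6341 higher of 13784 to 2293 higher of 15589, and all 21 members were then called lower at 7 wks, 9 of them below the median of all genes (-1.36). Directions below are therefore relative to TMM scaling.

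**Figure D3:**
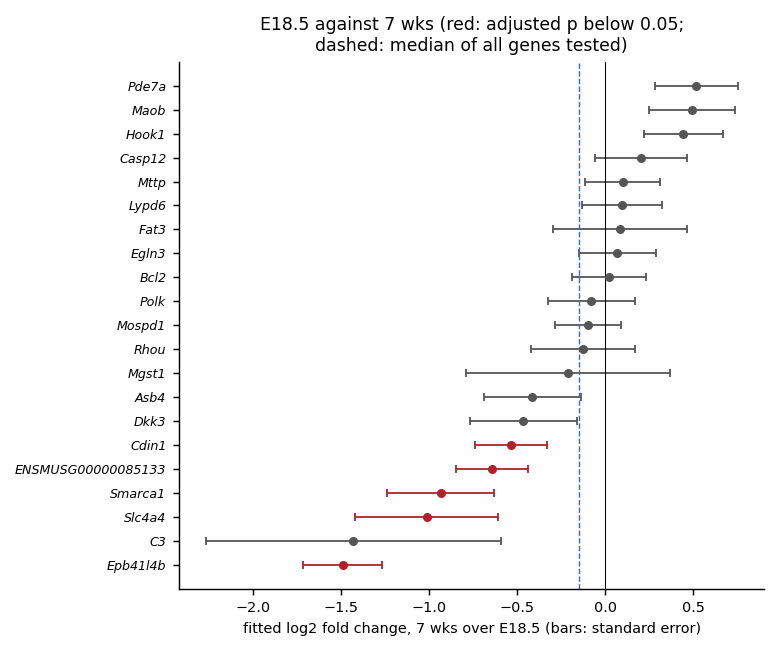
Fitted log2 fold change of 7 wks over E18.5 for each member, with standard errors, called members in red and the median of all tested genes as a dashed line. The 5 called members lie between -1.49 and -0.53, while 9 of the 16 others lie above 0.

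*Epb41l4b* fell most clearly, by 1.49 on the log2 scale (SE 0.22, edgeR adjusted p = 4.15e-05). *Smarca1* fell by 0.93 (SE 0.30, adjusted p = 0.0129) and ENSMUSG00000085133 by 0.64 (SE 0.20, adjusted p = 0.0119). These 3 calls held in all 12 fits without 1 library. *Slc4a4* fell by 1.01 (SE 0.40, adjusted p = 0.0368), but without E18.5 replicate 4, its highest library, the difference was -0.43 (adjusted p = 0.244), and the call was also lost without 7-wk replicate 2 (adjusted p = 0.0666), replicate 3 (0.104) or replicate 4 (0.0743), with the replicate number as a block (0.0852), with upper-quartile factors (0.0559), with the length trend removed (0.0641), with only the 8 libraries of the 2 ages (0.0502) and without E18.5 replicates 3 and 4 (-0.16, adjusted p = 0.698). *Cdin1* fell by 0.53 (SE 0.20, adjusted p = 0.0299), and this call was lost without E18.5 replicate 1 (0.0754), E18.5 replicate 2 (0.0551) or 7-wk replicate 2 (0.0933), and with upper-quartile factors (0.102). When a log2 change beyond 1 was tested, only *Epb41l4b* was called among the members.

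For *Bcl2* the fitted difference between the outer ages was 0.02 (SE 0.21, edgeR adjusted p = 0.938), for *Egln3* 0.07 (SE 0.22, adjusted p = 0.789) and for *Mospd1* -0.10 (SE 0.19, adjusted p = 0.644). The largest positive differences were those of *Pde7a* (0.52, SE 0.24, adjusted p = 0.0628), *Maob* (0.49, SE 0.24, adjusted p = 0.0842) and *Hook1* (0.44, SE 0.22, adjusted p = 0.0873), none of which passed the threshold of 0.05. Each of these 3 passed it with single libraries left out: *Pde7a* without E18.5 replicate 1 (adjusted p = 0.0135) or 7-wk replicate 2 (0.0241), *Maob* without E18.5 replicate 3 (0.0140) or 7-wk replicate 3 (0.0482), and *Hook1* without E18.5 replicate 1 (0.0360) or 7-wk replicate 3 (0.0337). All 3 also passed it with upper-quartile factors (*Pde7a* 0.0433, *Maob* 0.0318, *Hook1* 0.04998) and with the GC trend removed (*Pde7a* 0.0118, *Maob* 0.0233, *Hook1* 0.000908), where *Casp12* passed as well (0.51, adjusted p = 0.0340). *Pde7a* and *Hook1* passed with the length trend removed (0.00951 and 0.0150), and *Pde7a* with TMM factors from filtered genes (0.0413). *Dkk3* differed by -0.46 (SE 0.30, adjusted p = 0.180) and passed without E18.5 replicate 3 (-0.69, adjusted p = 0.0339). It also passed without both E18.5 libraries with adipocyte RNA (-0.95, adjusted p = 0.00317), a choice made after seeing the data. That *Dkk3* was not called with all libraries thus rested on these libraries.

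**Figure D4:**
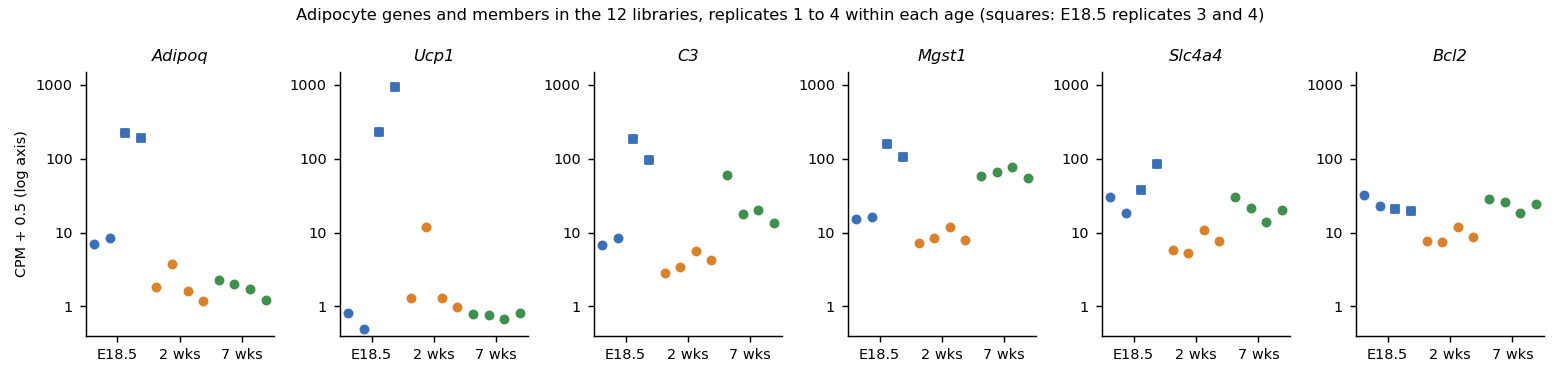
CPM + 0.5 (log axis) of the adipocyte genes *Adipoq* and *Ucp1* and of 4 members in the 12 libraries, replicates 1 to 4 from left to right within each age, with squares for E18.5 replicates 3 and 4. *C3* and *Mgst1* are high in the same 2 E18.5 libraries as the adipocyte genes, and *Bcl2* is not.

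*C3* and *Mgst1* depended on the libraries with adipocyte RNA. With all libraries the change of *C3* from E18.5 to 7 wks was -1.43 (SE 0.84, edgeR adjusted p = 0.139) and that of *Mgst1* -0.21 (SE 0.58, adjusted p = 0.754). Without E18.5 replicates 3 and 4, a choice made after seeing the data, both were higher at 7 wks, *C3* by 1.93 (adjusted p = 0.00883) and *Mgst1* by 2.08 (adjusted p = 1.50e-05). *C3* was called lower at 7 wks without E18.5 replicate 1 (-1.81, adjusted p = 0.0436), E18.5 replicate 2 (-1.81, adjusted p = 0.0485) or 7-wk replicate 1 (-2.16, adjusted p = 0.0469). *Ucp1*, the uncoupling protein of brown fat, was at 231.3 and 945 CPM in E18.5 replicates 3 and 4 and at 0.312 and 0 CPM in replicates 1 and 2, and reached 11.4 CPM in 2-wk replicate 2. After birth *Adipoq* stayed at or below 3.21 CPM at 2 wks and 7 wks, while *Mgst1* was at 8.37 ± 2.14 and 63.8 ± 10.5 CPM (SD, n = 4 each). Without the 2 libraries the selection gave 19 genes, 17 of them among the 21, and *C3*, *Mgst1*, *Mttp* and *Mospd1* dropped out. The part of adipocyte RNA in the E18.5 levels was not tested.

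Of the other 15 marker lists, that of neutrophils was the only list whose summed level at 2 wks lay below all libraries of the other ages, at 0.700 to 1.30 CPM against 9.52 to 33.1 CPM at E18.5 and 1.84 to 2.35 CPM at 7 wks. All 7 neutrophil markers fell from E18.5 to 2 wks, beside 35.8% of all genes tested, and 1 of 7, *Lcn2*, rose from 2 to 7 wks, beside 13.1%. Its part in the levels of *C3* was not tested. No member was among the 97 genes of the 16 marker lists.

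Of the 16 pathway lists, with 319 different genes, 1 held a member, *Egln3* in the list of hypoxia-responsive genes. Among the 16 genes of this list, 4 rose and 7 fell from E18.5 to 2 wks, beside 30.2% and 35.8% of all genes tested, and 6 rose and 1 fell from 2 to 7 wks, beside 13.1% and 14.2%. From E18.5 to 7 wks 4 rose and 5 fell, beside 32.9% and 38.6%. The fall and rise of *Egln3* itself are part of how it was selected, and without it the 15 other genes had 4 rises and 6 falls from E18.5 to 2 wks and 5 rises and 1 fall from 2 to 7 wks. The list medians were -0.22, 0.26 and 0.19 (log2) against -0.14, -0.04 and -0.15 for all genes. *Pdk1*, which limits entry of pyruvate into mitochondria, and *P4ha1*, a collagen prolyl hydroxylase, also had all 2-wk libraries below all others, at shallower depths of 0.729 and 0.497. *Pdk1* was at 135, 95.5, 104 and 165 CPM at E18.5, 44.7, 51.8, 61.5 and 79.1 CPM at 2 wks and 102, 118, 79.5 and 90.7 CPM at 7 wks. *Vegfa* and *Egln1* ran the other way, with rises from E18.5 to 2 wks of 1.85 and 1.88 (log2, called by edgeR), so that the list did not share the pattern of *Egln3*.

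Transcripts of members were low in GC. The median GC content of the 20 members with a value was 45.9% against 49.7% for the open genes, and 13 lay in the lowest tercile of the open genes, 6 in the middle and 1, *C3*, in the highest. Median length was 4096 nt against 3743 nt, and median exon number 12 against 10. The 20 members with a chromosome lay on 13 chromosomes, with *Smarca1*, *Maob* and *Mospd1* on X, which held 3.06% of the open genes, and 20 members were protein-coding.

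**Figure D5:**
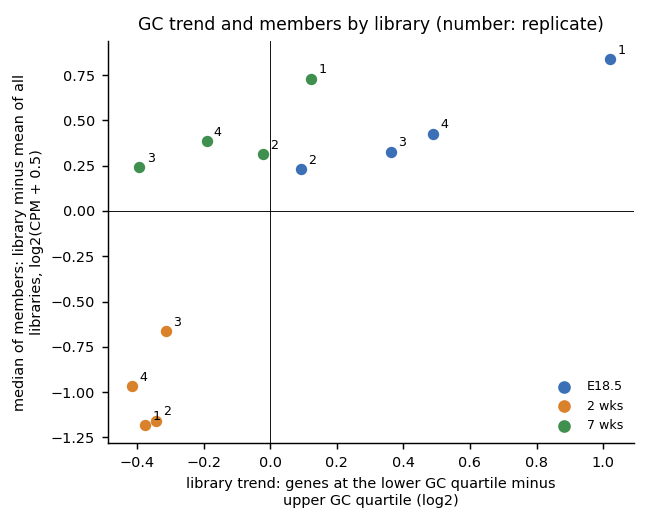
For each library, the trend of expression over GC content (x axis, genes at the lower minus those at the upper GC quartile, log2) against the median deviation of the members from their mean over all libraries (y axis, log2). The 4 libraries at 2 wks lie lowest, at -0.66 to -1.18, with GC trends of -0.31 to -0.42, and 7-wk replicate 3 has a similar trend, -0.39, with a member deviation of 0.24.

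GC content also moved with the libraries. Relative to the mean of all libraries, genes at the lower GC quartile (45.4%) exceeded those at the upper quartile (54.2%) by 1.02, 0.09, 0.36 and 0.49 (log2) in E18.5 replicates 1 to 4. The values were -0.38, -0.34, -0.31 and -0.42 in the 2-wk libraries and 0.12, -0.02, -0.39 and -0.19 in the 7-wk libraries. In the same order, the median deviation of the members came to 0.84, 0.23, 0.33 and 0.43 (E18.5), to -1.18, -1.16, -0.66 and -0.97 (2 wks) and to 0.73, 0.31, 0.24 and 0.39 (7 wks). E18.5 replicate 1, 2-wk replicate 3 and 7-wk replicate 1 were thus highest in both measures within their age. The same libraries were most often the highest when members were taken singly. With each library's GC trend removed, 10 of the 21 still met the rule, and the remaining depths were lowest for *Mospd1* (0.533), *Casp12* (0.534), *Hook1* (0.539), *Polk* (0.704), *Mttp* (0.709) and *Lypd6* (0.795). Depth stayed above 0 for each member in every alternative run, which selection for a depth of at least 1 in part ensures. Runs with another minimum CPM, another depth limit or overlap allowed could not move a depth.

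*Bcl2*, *Dkk3*, *Rhou*, *Slc4a4*, *Smarca1*, *C3* and ENSMUSG00000085133 met the rule under all 7 other scalings and trend removals and in all 12 runs without 1 library, and all but *C3* also met it without E18.5 replicates 3 and 4. ENSMUSG00000085133 had no GC content or length on record, so that the removal of these trends left its own values as they were. With the GC trend removed the depths were 1.15 for *Bcl2*, 1.38 for *Dkk3*, 1.48 for *Rhou*, 1.38 for *Slc4a4* and 1.36 for *Smarca1*.

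Exons of 8 members overlapped exons of another gene, on the other strand in each case. The strand setting of the counting is not given in the sources used here, and reads from such a pair may not be told apart. The partners with more than 1 CPM were *Trmt10a* beside *Mttp* (8.26, 3.96 and 3.33 CPM at the 3 ages, 768 nt of overlap), *Mtfr1* beside *Pde7a* (26.6, 31.4 and 63.8 CPM, 311 nt) and *Cert1* beside *Polk* (59.7, 42.8 and 94.7 CPM, 94 nt). The values of *Mttp*, *Pde7a* and *Polk* are uncertain to that extent.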

How the data were processed

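RNA of TA muscle from 4 WT 129Pas mice at each of 3 ages was sequenced from poly(A)-selected, stranded libraries. The deposited table holds raw read counts per Ensembl gene. Per the submitters' processing notes, the authors used bcl2fastq 2.17.1.14, cutadapt 1.10, STAR 2.5.3a and HTSeq 0.6.1p1 with build mm10, whereas the methods of the study name GRCm39. Counting options and annotation are not given in the sources used here. RefSeq promoters are on GRCm38.p6. GC content, length and overlaps are from GENCODE vM39, which matched 51477 of 55450 identifiers, and 19 of 21 members were matched to RefSeq coordinates by symbol.

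TMM factors came from the whole table. Genes kept by filterByExpr were fitted in edgeR 4.0.16 (limma 3.58.1, R 4.3.3) with age as the only term, and the threshold was an adjusted p of 0.05, two-sided. The biological coefficient of variation was 0.279. The procedure was tested on simulated data. Members, gene lists and tests were chosen with earlier results of these data known. Named were the 12 deepest and 10 most abundant members, list members, called members and those nearest the limit. *Lypd6*, *Casp12*, *Polk* and other genes outside this rule were named after their values were seen. The ACGTG, TATA and GC box motifs were added after seeing the data. Alternatives were other scalings, removal of GC and length trends by lowess (span 0.3), other limits, DESeq2 1.42.0, a replicate block and left-out libraries. Plots were drawn with matplotlib 3.10.9.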

Additional observations from a re-analysis of the deposited data

Results flagged for a closer look

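In each member and age the library farthest from the other 3 was examined, and 6 of 63 sets of 4 libraries had a gap above the critical value of Dixon's test, where chance gives about 3.15. *C3* at 7 wks was at 59.8 CPM in replicate 1 against 12.8 to 19.6 CPM in the others. *Epb41l4b* had a library apart at every age: E18.5 replicate 1 at 27.1 CPM (others 18.05 to 19.5), 2-wk replicate 4 at 2.02 CPM (others 3.12 to 3.20) and 7-wk replicate 1 at 10.6 CPM (others 6.09 to 6.77). *Cdin1* was at 4.87 CPM in 7-wk replicate 2 against 6.48 to 6.68 CPM, and *Pde7a* at 106 CPM in E18.5 replicate 1 against 61.9 to 69.2 CPM. The library was a replicate 1 in 4 of the 6 sets.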

How the results depend on the processing

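The number of members was 21 and ranged from 16 (without E18.5 replicate 1) to 35 (without 7-wk replicate 3) with 1 library left out. It was 35 with upper-quartile factors, 11 with a pseudocount of 2, 5 with a depth of 1.5 and 112 with a depth of 1.5-fold, and within 1.5 times 21 under the other alternatives. A like number did not mean the same genes. With total counts 23 genes met the rule, but only 11 of them were among the 21. With the GC trend removed 14 met it, 10 of them among the 21. From E18.5 to 7 wks 13784 genes were called, 7536 of them beyond a log2 change of 1, and 13284 to 13962 with 1 library left out. The 5 called members became 21 with total counts, 9 with the GC trend removed, 1 beyond a log2 change of 1 and 4 to 7 with 1 library left out. With total counts the hypoxia list had 3 genes higher from 2 to 7 wks and 11 lower from E18.5 to 7 wks, and with the GC trend removed 2 lower from 2 to 7 wks. Across ages, 5 of the 12 same-number pairs of libraries deviated together with r over 0.1 (r -0.26 to 0.43, median 0.011), and a library correlated best with its own number in 9 of 24 cases, so the numbers were not taken to pair the mice. With this number as a block 13623 genes and 4 members were called. Differences from E18.5 to 7 wks changed sign in 49 cases, 38 of them called in neither fit (values of -0.20 to 0.49). The others turned negative with total counts for *Casp12* (-1.01), *Mttp* (-1.12), *Hook1* (-0.77), *Egln3* (-1.15), *Maob* (-0.73), *Lypd6* (-1.12), *Bcl2* (-1.19), *Pde7a* (-0.69) and *Fat3* (-1.13), where the median of all genes moved by -1.22. They turned positive without E18.5 replicates 3 and 4 for *Mgst1* (2.08) and *C3* (1.93). Other causes were not tested. Of 567 depths under alternatives 552 moved by less than 1 SD between mice within an age (log2 scale) and 0 changed sign, which selection in part ensures. The count includes the runs with another minimum CPM, another depth limit or overlap allowed. Those runs change which genes are members and cannot move a depth. Counting error did not limit these values. The spread between 4 mice did.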

Other observations

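Outside the members, *Slc2a3*, a high-affinity glucose transporter of the list of glucose uptake genes, had a trough of 1.55 but fell short of the minimum level at E18.5. It was at 4.23, 4.55, 5.41 and 4.23 CPM at E18.5, at 0.957, 1.06, 1.88 and 1.17 CPM at 2 wks and at 10.97, 8.57, 10.8 and 10.8 CPM at 7 wks, without overlap between any ages. It was singled out after its values were seen, and no test of it is given.

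Summed over their genes, 2 of 16 pathway lists were lowest at 2 wks in all 4 libraries. Heat shock proteins summed to 3173 to 3283 CPM at E18.5, 2437 to 2961 CPM at 2 wks and 3341 to 4101 CPM at 7 wks, and of their 15 genes 2 rose and 8 fell to 2 wks, beside 30.2% and 35.8% of all genes tested. From 2 to 7 wks 2 of them, *Hsph1* and *Hsp90ab1*, rose and 1 fell, beside 13.1% and 14.2%. Genes of fatty acid synthesis and desaturation summed to 1330 to 2344, 911 to 1214 and 1362 to 1685 CPM at the 3 ages. Of these 20 genes 4 rose and 12 fell to 2 wks, and 2 rose and 4 fell from 2 to 7 wks, beside the same shares of all genes. The 2 that rose from 2 to 7 wks were *Me1* and *Acss2*, of which *Me1* rose and *Acss2* fell in the first interval. Sums and counts of the fatty acid list were not taken without E18.5 replicates 3 and 4. The part of adipocyte RNA in them was not tested. Neither list held a member, and *Acaca* and *Hspd1* came nearest without overlap between libraries, at depths of 0.670 and 0.457.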
